A study of Trametes versicolor with 17 samples.

Results

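The genes described here are 41 of 14296 gene models of the white-rot fungus Trametes versicolor. They were chosen by their values after 3 days of exposure: higher than control in every library under an aqueous phase made from food waste (FW), and lower than control in every library under one made from algal biomass (AB). Pellets of mycelium of 1 wild-type strain, labelled ASM 8036, were grown in 2% malt extract medium at 28 °C and 135 rpm. Control pellets had the medium alone. Treated pellets had 5% of the water fraction that hydrothermal liquefaction leaves when it turns wet waste into oil, from food waste, from salad dressing waste (SD) or from algal biomass. At 3 days, in the main batch, control, FW, SD and AB had 3 libraries each. At 7 days, in the preliminary batch, there were 2 control and 3 AB libraries. Time and batch cannot be told apart in any value set across the 2 batches. The sources used here give no marker genes for mycelial pellets, so that label was not checked against the data.

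White-rot fungi break down lignin and many aromatic compounds with secreted enzymes, among them manganese peroxidases, lignin peroxidases, versatile peroxidases and laccases. Manganese peroxidases oxidise Mn(II) to Mn(III), which in turn oxidises phenolic compounds. The water left by hydrothermal liquefaction carries dissolved organic compounds, and its makeup depends on the feedstock. The study's title asks for stress-responsive genes shared across such phases, whereas the genes below lay on opposite sides of control under 2 of them.

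Levels are given as CPM, the count of a gene divided by the total count of the library and multiplied by 1000000. A gene was a member when its lowest FW library was at least 1.3 times its highest control and its highest AB library at most its lowest control divided by 1.3. That AB library also had to exceed the lowest control divided by 8, which leaves out the genes with the deepest drop under AB. The lowest SD library could not lie above the highest FW library, the FW mean had to reach 5 CPM, and at least 1 count had to be present at 7 days. Of 12067 gene models with counts at 3 days, 1647 (13.6%) met the FW condition alone and 2337 (19.4%) met both AB conditions. A model with no counts in the controls met the FW condition at any FW level, so 13.6% can exceed the share raised by FW. All the conditions together left 44, of which the rule set aside 1 gene and a stretch of scaffold 10 that holds 2 more, the manganese peroxidases MnP3s and MnP4s. Every level under FW, SD, AB and control at 3 days entered the choice, so these levels are a description and carry no test. The batch at 7 days did not set the direction of any member.

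The members lay on 14 of the 236 scaffolds, with at most 5 on one scaffold. All 41 matched a gene of the RefSeq table of the T. versicolor v1.0 assembly by start and end, and 1 of them, MnP5s, has a gene symbol there. The table gives no product descriptions, so the other members are named by locus tag and have no role stated. Their models had a median of 7 exons and 1238 bases of exon, against 6 exons and 1457.5 bases for the 7726 models with an FW mean of 5 CPM or more. The members' quartiles ran from 1023 to 1626 bases and from 4 to 12 exons. TRAVEDRAFT_41524 has 1 exon, and TRAVEDRAFT_50114 (scaffold 9, 600685 to 611004) has 47 exons in 5517 bases. TRAVEDRAFT_61602 overlaps another model on the opposite strand, and its value is uncertain to that extent, since the strand setting of the counting is not given in the sources used here.

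Libraries of the main batch held 15459249 to 18770043 counts and those of the preliminary batch 27654678 to 35223283. A count of 3 corresponds to at most 0.194 CPM in a main library. At this depth 1 member, TRAVEDRAFT_19947, had no count in 1 AB library at 3 days, and every other member had counts in all 17 libraries. Within groups of the main batch the members' median coefficient of variation was 17.2% to 19.8%, against 9.44% to 14.1% for the models with an FW mean of 5 CPM or more. At 7 days the members' median was 34.5% in the controls and 44.9% under AB, against 29.5% and 27.1% for those models.

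Together the members made up 0.250%, 0.346% and 0.254% of all counts in the 3 control libraries, and 1.00%, 0.871% and 0.924% in the FW libraries. Their share was 0.403%, 0.448% and 0.412% under SD and 0.0793%, 0.0741% and 0.0737% under AB. As mean ± standard deviation of 3 libraries, the summed level was 2833 ± 544 CPM in the controls and 9333 ± 673 under FW. It was 4212 ± 236 under SD and 757 ± 31.1 under AB. The 5 members with the highest FW means, TRAVEDRAFT_69484, TRAVEDRAFT_30997, TRAVEDRAFT_122666, TRAVEDRAFT_71642 and TRAVEDRAFT_55631, made up 57.6% of the summed FW level. Control replicate 2 was the highest control for 22 of the 41 members, and FW replicate 2 the lowest FW library for 21.

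**Figure D1:**
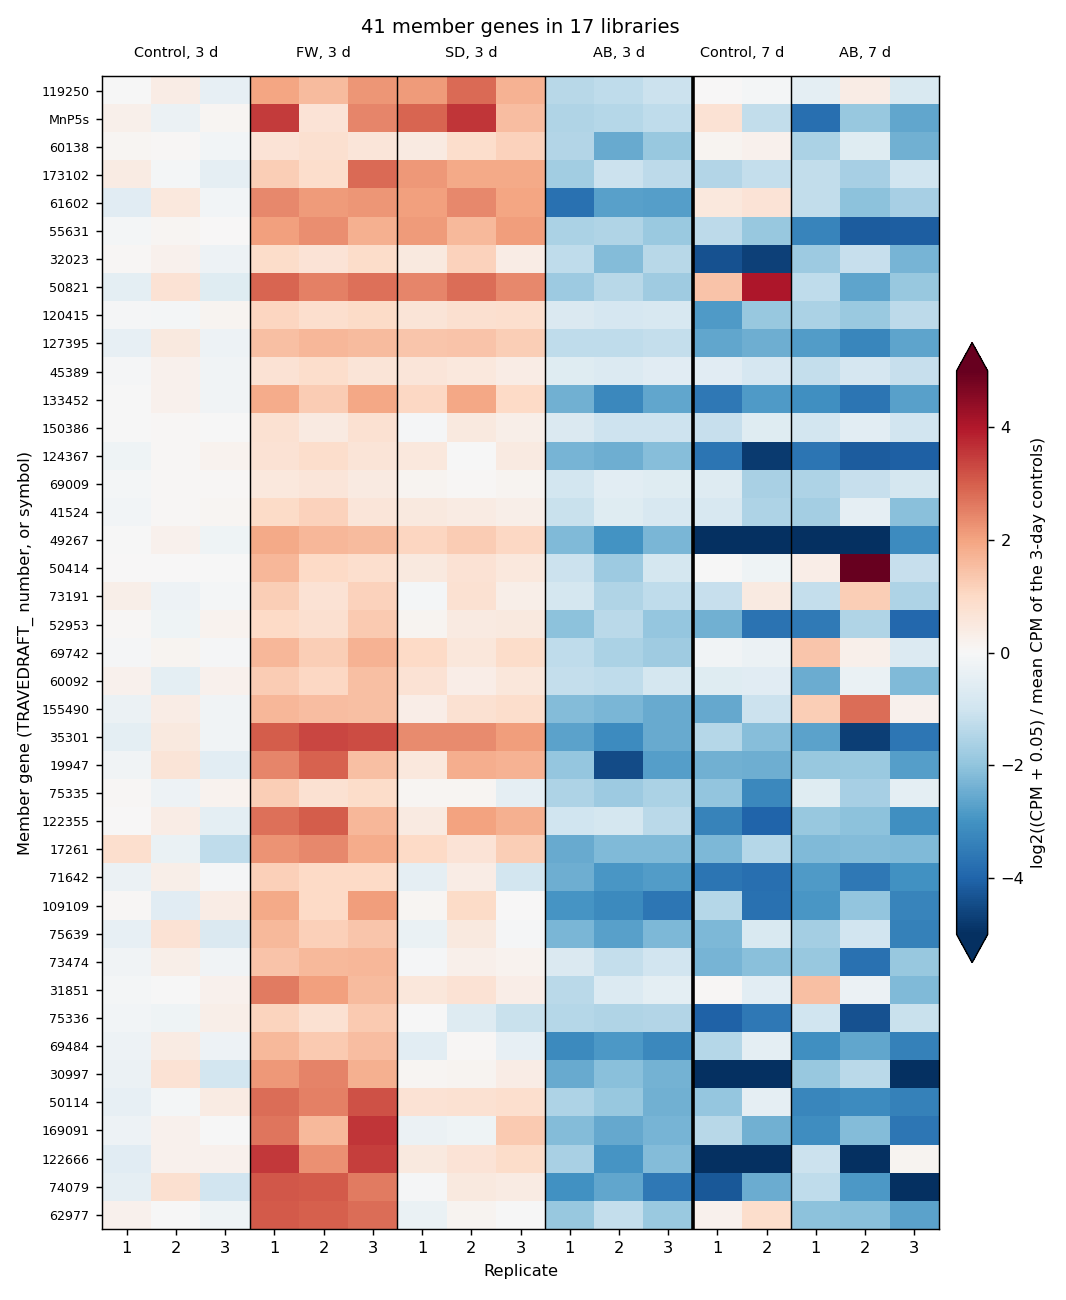
Level of each of the 41 members (rows, ordered by SD mean as a percent of FW mean) in the 17 libraries (columns), as log2 of CPM plus 0.05 over the mean of the 3-day controls. FW columns are above 0 and 3-day AB columns below 0 in every row, as the rule requires, while SD columns range from the FW colour at the top to the control colour at the bottom and the 7-day columns follow neither order.

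The ratio of FW mean to control mean ran from 1.44 to 9.28 with a median of 2.99, and 32 members reached 2-fold. From control to AB the ratio of means ran from 1.55 to 9.60 with a median of 3.16, and 34 members reached 2-fold. FW and AB means differed by 2.30 to 65.0 times, with a median of 12.7. Control means covered a wide range, from 1.11 to 632 CPM, with 14 members under 10 CPM and 8 at 100 CPM or more.

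TRAVEDRAFT_69484 (scaffold 2, 3461797 to 3463692) had the highest FW mean. Its controls were at 535, 832 and 530 CPM and its FW libraries at 1946, 1559 and 1854 CPM. Under SD it was at 441, 657 and 476 CPM, and under AB at 70.1, 85.2 and 66.9 CPM. The SD libraries thus overlapped the controls, while AB was lower by a ratio of means of 8.54.

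TRAVEDRAFT_30997 (scaffold 10, 1815773 to 1816374), with 493 bases in 3 exons, was the most abundant member per length, at 2491 CPM per kb under FW. Its libraries were at 222, 453 and 143 CPM in the controls and 1221, 1527 and 936 CPM under FW. Under SD it lay within the control range, at 293, 297 and 356 CPM. Under AB it was at 48.1, 64.4 and 53.4 CPM, below all controls.

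TRAVEDRAFT_122666 (scaffold 5, 1284853 to 1286441) was at 76.7, 130 and 131 CPM in the controls and 1309, 551 and 1221 CPM under FW. FW replicate 2 was the low one, still 4.20 times the highest control. It was at 159, 183 and 210 CPM under SD and 36.1, 14.6 and 24.9 CPM under AB. SD lay above the controls with no overlap but far below FW, at 17.9% of the FW mean.

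TRAVEDRAFT_71642 (scaffold 5, 1971082 to 1975064) was at 270, 398 and 315 CPM in the controls, 757, 656 and 647 CPM under FW, and 60.1, 43.5 and 47.4 CPM under AB. TRAVEDRAFT_55631 (scaffold 1, 3255876 to 3258454) was at 141, 164 and 154 CPM in the controls and 638, 763 and 530 CPM under FW. It differed from the 4 genes above in its SD libraries, which at 671, 470 and 655 CPM overlapped FW. TRAVEDRAFT_49267 (scaffold 8, 573277 to 575739) was at 180 ± 28.6 CPM in the controls and 593 ± 73.0 under FW (standard deviation, n = 3). It was at 393 ± 33.1 under SD and 32.9 ± 8.85 under AB.

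TRAVEDRAFT_120415 (scaffold 4, 2035868 to 2036785) was at 239, 231 and 270 CPM in the controls, 521, 445 and 477 CPM under FW and 148, 138 and 143 CPM under AB. TRAVEDRAFT_74079 (scaffold 10, 1780274 to 1780989) had controls at 45.9, 109 and 32.2 CPM. Its FW libraries stood at 543, 526 and 374 CPM and its AB libraries at 7.51, 10.3 and 5.18 CPM, a ratio of FW to AB means of 62.9.

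**Figure D2:**
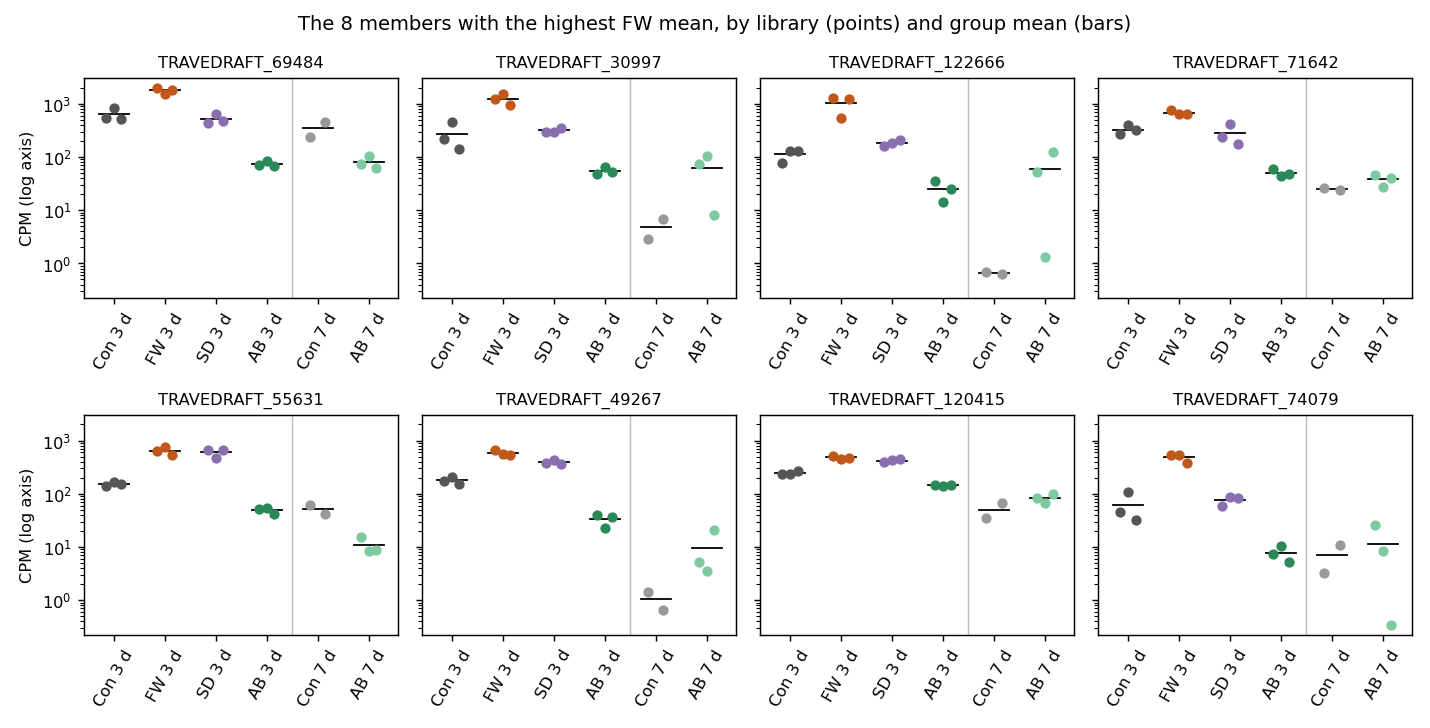
CPM (log axis) of the 8 members with the highest FW means, 1 panel each, with a point for each library and a bar for each group mean. At 3 days FW points lie above and AB points below the control points in every panel, and at 7 days the AB points lie below the controls for TRAVEDRAFT_69484 and TRAVEDRAFT_55631, overlap them for TRAVEDRAFT_74079 and lie above them in the other 5 panels.

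The largest contrast between FW and AB, 65.0 times, was that of TRAVEDRAFT_35301 (scaffold 3, 2147277 to 2148346). It was at 6.88, 13.6 and 8.55 CPM in the controls, 79.2, 97.2 and 93.5 under FW, and 1.46, 1.05 and 1.63 under AB. Next came TRAVEDRAFT_74079, then TRAVEDRAFT_19947 at 49.0 times, which rests on 6 counts under AB over 3 libraries. TRAVEDRAFT_61602 followed at 43.7 times, with 14.6 ± 1.34 CPM under FW and 0.334 ± 0.130 CPM under AB. TRAVEDRAFT_122666 and TRAVEDRAFT_169091 stood at 40.8 and 36.4 times. For TRAVEDRAFT_169091 (scaffold 7, 749823 to 751279) the FW libraries were spread from 62.8 to 242 CPM, above controls at 17.4 to 23.9 CPM.

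At the other end, some members lay just inside the 1.3-fold limit. TRAVEDRAFT_69009 was at 16.3 ± 1.10 CPM in the controls (standard deviation, n = 3), 23.2, 24.9 and 22.2 under FW and 8.67, 11.4 and 10.5 under AB. TRAVEDRAFT_45389 had its lowest FW library 1.32 times its highest control and its lowest control 1.31 times its highest AB library. TRAVEDRAFT_122355 lay at the AB limit, with a lowest control of 6.25 CPM and a highest AB library of 4.80 CPM. Just outside lay TRAVEDRAFT_110120 and TRAVEDRAFT_82850, at 1.29 times on the FW side, and TRAVEDRAFT_122086 and TRAVEDRAFT_52862, at 1.29 and 1.27 times on the AB side. Nearest to the limit of 8 was TRAVEDRAFT_69484, with a lowest control 6.21 times its highest AB library, and TRAVEDRAFT_115964, at 8.23 times, was left out. A limit of 1.5 in place of 1.3 left 24 of the 41 genes, and without FW replicate 2 the rule gave 65 genes.

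SD had only a one-sided condition in the rule, and the members spread widely in it. In 22 of 41 members (53.7%) every SD library lay above every control, where 25.4% of the 11969 gene models with counts did so. No member had all SD libraries below the controls, against 9.75% of those models. Every SD library lay below every FW library in 27 members (65.9%), against 11% of the models with counts. Since control, FW and SD levels all entered the choice, nothing is read from these shares. The SD mean was 12.3% to 129% of the FW mean, with a median of 61.3%.

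SD libraries lay above the controls and overlapped FW in 11 members. MnP5s (TRAVEDRAFT_43477; scaffold 2, 2440421 to 2442180), a manganese peroxidase by its symbol, had the highest ratio of SD to control means, 7.46. It was at 2.75, 1.88 and 2.47 CPM in the controls, 26.7, 3.72 and 12.8 under FW, 17.6, 28.4 and 6.92 under SD, and 0.793, 0.820 and 0.931 under AB. Its FW and SD libraries were spread over more than the distance between those groups, and FW replicate 2 stood close to the controls.

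TRAVEDRAFT_50821 (scaffold 10, 289506 to 290457) was at 11.9, 27.0 and 10.8 CPM in the controls, 125, 96.1 and 111 under FW, and 89.0, 116 and 87.7 under SD. Under AB it was at 4.70, 6.21 and 4.77 CPM. TRAVEDRAFT_119250 (scaffold 4, 3225594 to 3228002) was higher under SD, at 44.7, 73.6 and 34.5 CPM, than under FW, at 40.2, 30.5 and 47.9 CPM, by its mean but with overlap. The same held for TRAVEDRAFT_60138, TRAVEDRAFT_173102 and MnP5s, the 4 members with an SD mean above the FW mean. In TRAVEDRAFT_173102 the FW mean rested on 1 library, with 68.5, 55.1 and 213 CPM.

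Another 11 members lay between control and FW, with no overlap on either side. TRAVEDRAFT_35301 was one, at 49.8, 49.2 and 40.7 CPM under SD, and TRAVEDRAFT_50114 another, at 9.65, 9.80 and 10.5 CPM between controls of 4.35 to 7.79 and FW libraries of 33.1 to 52.9. In 16 members SD overlapped control and lay below FW. TRAVEDRAFT_62977 (scaffold 2, 3452801 to 3453873) is one of these, with controls at 11.2, 9.51 and 8.34 CPM and SD libraries at 7.56, 10.5 and 9.51. Its FW libraries were at 79.9, 76.7 and 67.1 CPM and its AB libraries at 2.56, 4.16 and 2.62. The lowest ratios of SD to control means were those of TRAVEDRAFT_75336, TRAVEDRAFT_69484 and TRAVEDRAFT_71642, at 0.694, 0.830 and 0.855, each with overlap. The last 3 members overlapped both groups.

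**Figure D3:**
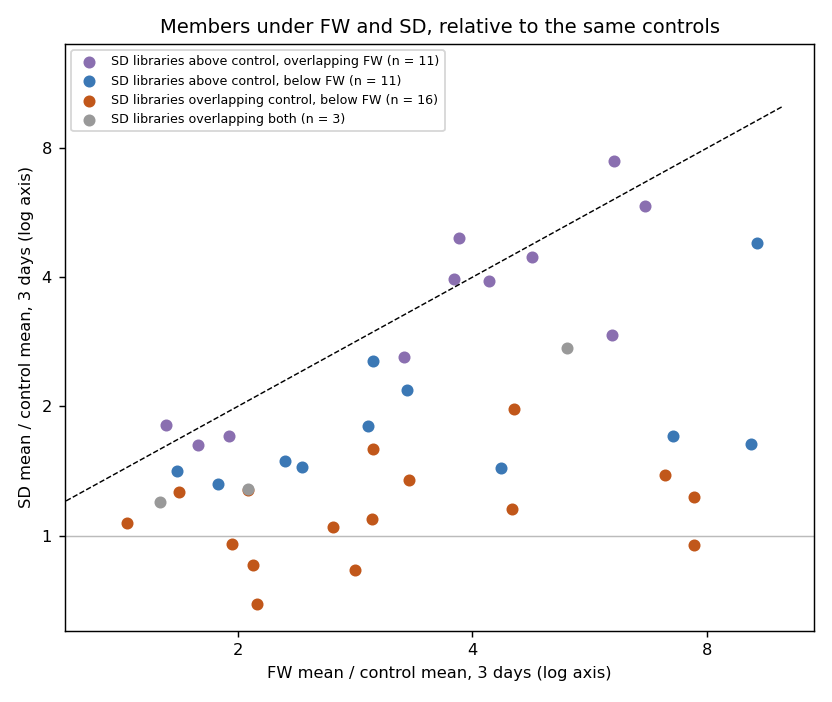
Ratio of SD mean to control mean against ratio of FW mean to control mean at 3 days for the 41 members (both axes on a log scale), coloured by whether the SD libraries overlap those of control or FW. The dashed line marks equal ratios and the grey line no difference from control; both ratios share the same 3 controls. The 4 points above the dashed line are the members with an SD mean above the FW mean, and the 16 members with SD overlapping control and below FW include TRAVEDRAFT_62977 far to the right.

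Members rarely lay close to each other. TRAVEDRAFT_75335 (scaffold 14, 670544 to 672664) and TRAVEDRAFT_75336 (672914 to 673777) are direct neighbours on the minus strand, 249 bases apart. The first was at 10.7, 8.60 and 11.6 CPM in the controls, 23.9, 17.3 and 19.7 under FW and 3.48, 2.87 and 3.43 under AB. The second was at 96.3, 92.8 and 132 CPM in the controls, 229, 183 and 268 under FW and 39.7, 37.8 and 39.1 under AB. Per length its FW level was 281 CPM per kb, against 13.1 for TRAVEDRAFT_75335. In both genes FW replicate 2 was the lowest FW library and SD overlapped the controls.

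TRAVEDRAFT_19947 and TRAVEDRAFT_122355 on scaffold 5 face away from each other, 9072 bases apart with 1 model between them. That model, TRAVEDRAFT_121877, had means of 37.0 CPM in the controls, 57.1 under FW, 42.6 under SD and 24.8 under AB. The FW libraries of TRAVEDRAFT_122355 were at 60.6, 73.6 and 28.3 CPM and those of TRAVEDRAFT_19947 at 6.06, 8.51 and 3.09 CPM, in both cases highest in replicate 2 and lowest in replicate 3. TRAVEDRAFT_62977 and TRAVEDRAFT_69484 on scaffold 2 are 7923 bases apart with 4 models between them, which had FW means of 2.15 to 73.2 CPM against control means of 4.39 to 76.8 CPM. TRAVEDRAFT_74079 and TRAVEDRAFT_30997 on scaffold 10 are 34783 bases and 9 models apart, and 5 of those 9 models had no counts at 3 days.

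The batch at 7 days allows a test of AB against control in libraries that did not set the direction of the members. It was tested with edgeR's quasi-likelihood test over 10192 genes in 5 libraries, with Benjamini-Hochberg adjustment over all of them and a call at an adjusted p of 0.05. Of 40 members tested 3 (7.50%) were called lower, where 2.4% of all genes tested were. None was called higher, where 0.873% of all genes were. At an unadjusted p under 0.05, 9 members were lower and 7 higher, against 11.2% and 9.89% of all genes. DESeq2 called 7 members lower and 6 higher, against 6.63% and 6.73% of the 10177 genes it gave an adjusted p. The 3 calls did not hold when some libraries were left out: 0 remained without control replicate 2 or AB replicate 3, 1 remained without control replicate 1 or AB replicate 1, and 2 without AB replicate 2. TRAVEDRAFT_19947 did not pass the filter on low counts.

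The members' log2 fold changes at 7 days ran from -5.22 to 6.52 with a median of 0.062, against a median of -0.0059 over all genes tested. The fold change was below 0 in 18 of the 40, where 50.3% of all genes were below 0. The members' quartiles were -0.75 and 0.74, and those of all genes -0.55 and 0.55. The median standard error (SE) of a member's log2 fold change was 0.60, against 0.45 over all genes tested. In 10 of 41 members (24.4%) all 3 AB libraries lay below both controls, against 20.6% of the 11623 gene models with counts, and in 9 all lay above, against 13.8%.

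The gene with the largest called fall was TRAVEDRAFT_50821. Its 7-day controls were at 44.8 and 272 CPM and its AB libraries at 6.79, 2.64 and 4.46 CPM. The log2 difference of AB from control was -5.22 with an SE of 0.94 (edgeR, adjusted p = 0.0429). Leaving out control replicate 2, the higher one, gave -2.92 with an SE of 0.53 (adjusted p = 0.134).

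TRAVEDRAFT_62977 had 7-day controls at 11.2 and 17.9 CPM, and fell under AB to 2.28, 2.21 and 1.45 CPM. Its log2 difference was -2.87 with an SE of 0.47 (edgeR, adjusted p = 0.0369). TRAVEDRAFT_55631 fell from 62.4 and 40.8 CPM to 15.4, 8.53 and 8.86 CPM, by a log2 difference of -2.13 with an SE of 0.36 (adjusted p = 0.0377). The groups did not overlap for either gene. Both stayed below 0 whichever library was left out, while the adjusted p rose to at most 0.171 and 0.158.

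Other members had lower AB levels at 7 days without passing the test. TRAVEDRAFT_61602 was at 4.38 and 4.83 CPM in the controls against 1.27, 0.687 and 0.908 CPM with AB (log2 difference -2.22, SE 0.45, adjusted p = 0.0570). TRAVEDRAFT_69484 was at 233 and 455 CPM against 75.4, 105 and 61.1 CPM (-2.11, SE 0.53, adjusted p = 0.0954). MnP5s was at 3.90 and 0.972 CPM against 0.123, 0.579 and 0.341 CPM (-2.58, SE 0.77, adjusted p = 0.131). TRAVEDRAFT_50114, TRAVEDRAFT_35301 and TRAVEDRAFT_60138 had log2 fold changes of -2.38, -1.63 and -1.47. The libraries of these 6 genes did not overlap between AB and control. Leaving out control replicate 2 moved the log2 fold change of TRAVEDRAFT_50114 to -1.05 and that of TRAVEDRAFT_69484 to -1.17, and leaving out control replicate 1 moved that of MnP5s to -1.63.

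**Figure D4:**
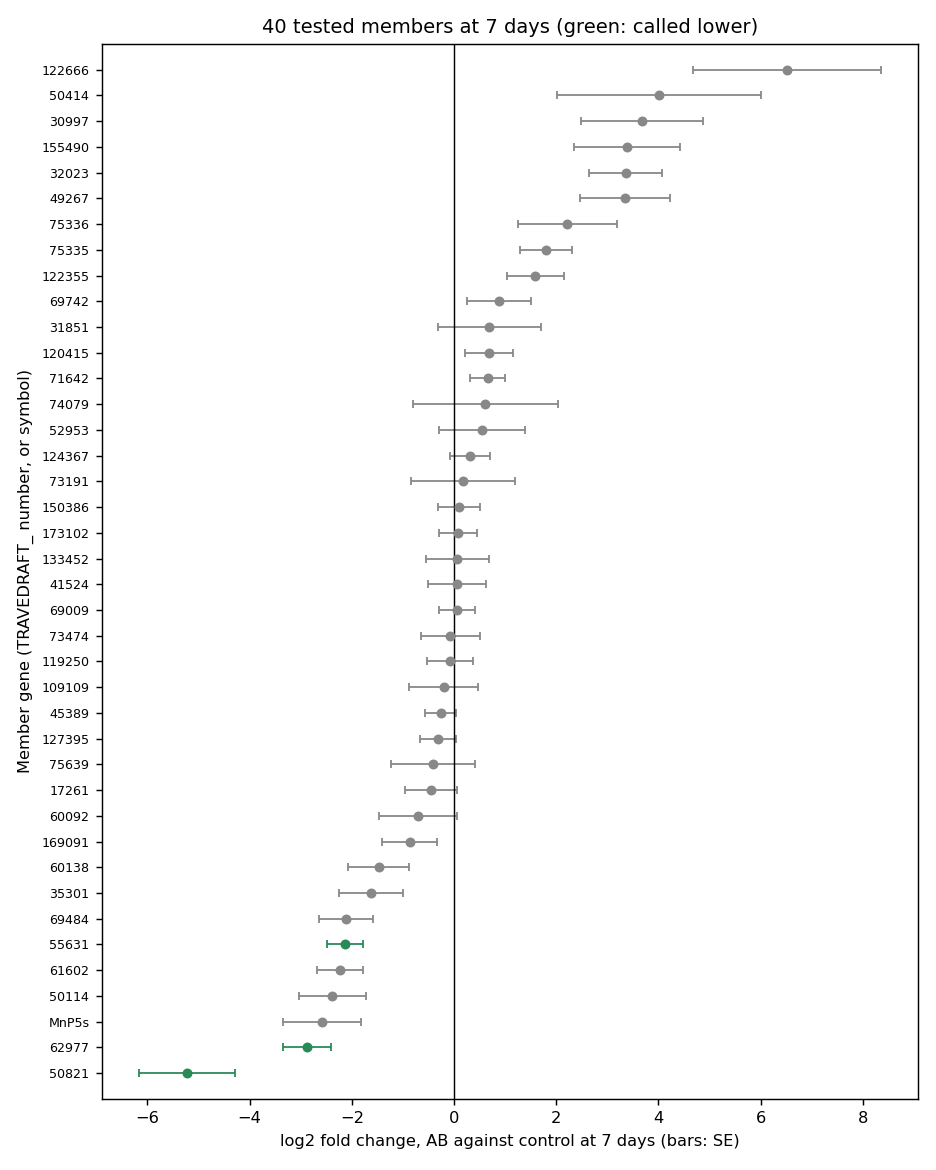
Log2 fold change of AB against control at 7 days for the 40 tested members, with bars of 1 SE. The 3 members called lower are green; 18 members lie below 0 and 22 above, from -5.22 to 6.52.

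Among the members with higher AB levels at 7 days, none passed the test. TRAVEDRAFT_122666 was at 0.698 and 0.627 CPM in the controls against 53.2, 1.302 and 124 CPM with AB (log2 difference 6.52, SE 1.84, adjusted p = 0.120). AB replicate 2 lay near the controls, and the value rose to 7.09 when it was left out (adjusted p = 0.0189). Leaving out AB replicate 1 or 3 instead gave 6.58 and 5.39, with no call (adjusted p = 0.146 and 0.162). TRAVEDRAFT_30997 was at 2.86 and 6.83 CPM in the controls against 73.2, 106 and 8.23 CPM with AB (3.68, adjusted p = 0.156). Leaving out AB replicate 3, the low one, gave 4.21 (adjusted p = 0.0461). Without AB replicate 1 or 2 it was 3.61 and 3.01, with no call (adjusted p = 0.221 and 0.173).

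TRAVEDRAFT_49267 was at 1.43 and 0.658 CPM in the controls against 5.21, 3.54 and 20.4 CPM with AB (log2 difference 3.34, SE 0.88, adjusted p = 0.107). TRAVEDRAFT_155490 was at 4.73 and 13.5 CPM against 65.8, 194 and 32.3 CPM (3.39, SE 1.04, adjusted p = 0.139). TRAVEDRAFT_32023 was scarce, at 0.127 and 0.0940 CPM in the controls against 0.987, 1.59 and 0.681 CPM with AB (3.36, SE 0.71, adjusted p = 0.0634). Leaving out AB replicate 3 gave 2.22 for TRAVEDRAFT_49267, and leaving out AB replicate 2 gave 2.34 for TRAVEDRAFT_155490. For the neighbours TRAVEDRAFT_75335 and TRAVEDRAFT_75336 the log2 fold changes were 1.81 (adjusted p = 0.119) and 2.22 (adjusted p = 0.257). Without AB replicate 2 both were called, at 2.07 (adjusted p = 0.0468) and 2.73 (adjusted p = 0.0357). Without AB replicate 1 or 3 neither was called. The adjusted p was then 0.281 and 0.295 for TRAVEDRAFT_75335, and 0.438 and 0.417 for TRAVEDRAFT_75336.

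Control levels themselves differed between the batches. In 32 of 41 members both 7-day controls lay below all 3-day controls, where 42.6% of 11986 gene models did so, and in 2 members both lay above, where 20.2% did. The summed level of the members was 733 and 1247 CPM in the 7-day controls. Under AB at 7 days it was 906 ± 240 CPM (standard deviation, n = 3), against 2833 ± 544 in the 3-day controls. TRAVEDRAFT_122666 had a control mean of 113 CPM at 3 days and 0.662 CPM at 7 days, and TRAVEDRAFT_49267 one of 180 and 1.04 CPM. TRAVEDRAFT_30997 went from 273 to 4.84 CPM. In TRAVEDRAFT_50821 the control mean was higher at 7 days, at 158 against 16.6 CPM. The 3-day controls entered the rule, the batches were counted in separate tables, and no test was made across them.

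**Figure D5:**
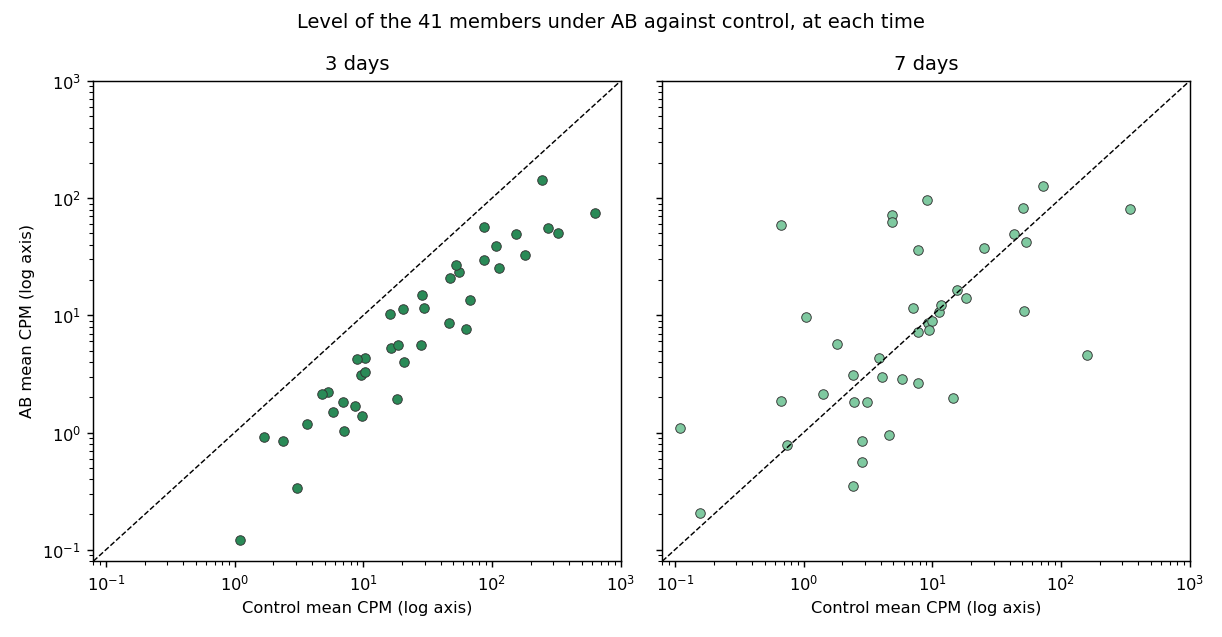
Mean CPM under AB against mean CPM in the controls of the same batch for the 41 members (both axes on a log scale; the dashed line marks equality), at 3 days on the left and at 7 days on the right. At 3 days every point lies below the line, as the rule requires, and at 7 days points lie on both sides, from TRAVEDRAFT_122666 (59.4 CPM under AB, 0.662 in the controls) to TRAVEDRAFT_50821 (4.63 CPM under AB, 158 in the controls).

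The members that followed FW under SD and those that did not showed both directions at 7 days. Of the 11 members with SD overlapping FW and above control, 5 had all AB libraries below both controls at 7 days and 3 had all above, with a median log2 fold change of -0.079. Of the 16 with SD overlapping control and below FW, 2 had all below and 4 all above, with a median of 0.18. Among the 11 in between, 3 had all below and 2 all above, with a median of 0.057. Over all gene models with counts, 20.6% had all below and 13.8% all above. The subsets are small, and a link between SD position and direction at 7 days was not tested.

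Among the gene families that carry a symbol, MnP5s was the only member, but the rule set aside 3 further genes that met its other conditions, each a peroxidase by its symbol. The families were 13 manganese peroxidases, 10 lignin peroxidases, 3 versatile peroxidases, 2 dye-decolorising peroxidases, 3 heme-thiolate peroxidases, 1 cytochrome c peroxidase, 7 laccases, 2 LDO models and 1 TvFet model. Of the manganese peroxidases, 7 lie in the stretch of scaffold 10 that the rule set aside. Of the 8 manganese peroxidases tested at 7 days none was called in either direction, and their median log2 fold change was -1.14. Both tested versatile peroxidases, 3 of 7 laccases and 1 of 2 LDO models were called lower by edgeR, where 2.4% of all genes tested were. No other tested model of these families was called in either direction. Of the manganese peroxidases outside the stretch, MnP10s had means of 14.4 CPM in the controls, 14.6 under FW, 13.8 under SD and 376 under AB at 3 days. MnP11s had 72.6 CPM in the controls, 42.8 under FW, 51.6 under SD and 4.56 under AB. MnP1s was above its control mean of 5.10 CPM under FW (23.2), SD (10.1) and AB (170). MnP2s was at 13.2 CPM in the controls, 12.3 under FW, 13.3 under SD and 15.7 under AB.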

How the data were processed

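The authors deposited whole-number read counts per gene model in 2 tables, 1 for each batch, with no normalisation. Per the submitters' processing notes, the tools were HISAT2 and featureCounts. Not given in the sources used here are their versions, the build, and how strand and multiply matching reads were handled. Coordinates and exon lengths are those of the count tables, per the file headers. Libraries were polyA-selected from 200 ng of total RNA, per the labels' protocols. Titles name biological replicates without saying whether cultures were separate, so p-values cover only the spread among these libraries, which may be technical. Of 14296 models 14214 matched a RefSeq gene by start and end, and 42 carry a symbol. No sequence was used here.

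CPM used column sums. The 7-day test used edgeR 4.0.16 in R 4.3.3, TMM scaling, filterByExpr by group and a two-sided quasi-likelihood F test over 3 AB and 2 control libraries (biological coefficient of variation 0.455, 3 residual degrees of freedom). The fit was also run on simulated counts with known changes. The outcome of that run is not given here, and nothing is read from it. An SE is the absolute log2 fold change over the square root of F. An exact permutation test of 3 against 2 libraries cannot go below p = 0.2, so none was made. The fit was repeated with DESeq2 1.42.0, with RLE size factors, with no filter, with a filter of 10 CPM in 2 libraries, without each library, with a replicate block and, chosen after seeing the data, without scaling, and the rule with other limits. Named members were all with a symbol, the extremes of FW level, of the FW to AB and SD to control ratios and of called 7-day changes, direct or next-but-one neighbours, and those nearest the limits. Others were named after their values were seen. The members and lists were chosen with earlier results of these data known. Lists planned on product text and motifs could not be formed.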

Additional observations from a re-analysis of the deposited data

Results flagged for a closer look

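In all, 9 members had every AB library below every control at 3 days, which the rule fixed, and every AB library above both controls at 7 days. Over the 11623 gene models with counts, whatever their 3-day levels, 13.8% had every AB library above both controls at 7 days. In 10 members every AB library lay below both controls at 7 days, against 20.6% of those models. Whether the 9 are more than that background would give was not tested. In the 9, the ratios of AB mean to control mean at 7 days were 89.6 for TRAVEDRAFT_122666, 12.9 for TRAVEDRAFT_30997 and 10.7 for TRAVEDRAFT_155490. They were 9.84 for TRAVEDRAFT_32023 and 9.33 for TRAVEDRAFT_49267. For TRAVEDRAFT_75335, TRAVEDRAFT_122355, TRAVEDRAFT_120415 and TRAVEDRAFT_71642 they were 3.16, 2.78, 1.64 and 1.51. The difference between the times was not tested, because the 3-day values chose the members, and time and batch cannot be told apart. None of the 9 was called at 7 days by edgeR on all 5 libraries without a block. Without AB replicate 2 edgeR called TRAVEDRAFT_122666 and TRAVEDRAFT_75335 higher, and without AB replicate 3 TRAVEDRAFT_30997. Without AB replicate 1 it called none of the 9. The 9 were picked on these same 7-day libraries, so nothing is read from how many of them were called. Of the 40 members tested, DESeq2 called 6 higher, all of them in the 9, where it called 6.73% of all genes higher. The adjusted p-values were 2.69e-06 for TRAVEDRAFT_122666, 0.000619 for TRAVEDRAFT_49267 and 0.00113 for TRAVEDRAFT_32023. For TRAVEDRAFT_155490, TRAVEDRAFT_30997 and TRAVEDRAFT_75335 they were 0.00199, 0.00241 and 0.0106. DESeq2 also called 7 members lower, where it called 6.63% of all genes lower. These included TRAVEDRAFT_61602 (adjusted p = 0.000532), TRAVEDRAFT_69484 (0.00558), TRAVEDRAFT_50114 (0.0130) and MnP5s (0.0201). edgeR with the replicate block called TRAVEDRAFT_30997 and TRAVEDRAFT_155490 higher, with adjusted p-values of 0.0428 and 0.0453. In that fit AB replicate 3 has no control of its number and does not inform the difference. It was the lowest AB library for both genes, at 8.23 and 32.3 CPM. All 9 had lower control levels at 7 days than at 3 days. That was not particular to them, since the control mean was lower at 7 days in 36 of the members.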

How the results depend on the processing

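The rule gave 41 genes, 24 with a limit of 1.5 and 40 to 65 when single libraries were left out, the 65 without FW replicate 2. CPM scaled by TMM factors kept 39 of the 41. At 7 days 3 members were called lower, 5 without scaling, 7 with DESeq2 and 0 to 2 without single libraries. The number called higher was 0, against 6 with DESeq2 and 0 to 3 without single libraries. Over all genes 334 were called, 1360 with DESeq2 and 0 to 689 without single libraries, the 0 without control replicate 2. A fit without 1 control assumes that the lone control varies like the AB libraries. Log2 fold changes of TRAVEDRAFT_69009, TRAVEDRAFT_119250 and TRAVEDRAFT_74079, none called, lay between -0.14 and 0.33, -0.54 and 0.16, and -0.67 and 2.16 without single libraries, and that of TRAVEDRAFT_69009 was -0.087 without scaling. The cause was not tested. No scaling moved the median of all genes from -0.0059 to -0.10. AB and control at 7 days share the numbers 1 and 2. Over genes, the deviations of same-numbered libraries from their group means correlated at -0.219 and -0.193. The deviations of 2 controls mirror each other. AB replicate 1 with control replicate 2 thus gave 0.219, and AB replicate 2 with control replicate 1 gave 0.193. With the replicate block 0 members were called lower, 2 higher and 91 genes in all, and the values of TRAVEDRAFT_69009 and TRAVEDRAFT_119250 were -0.081 and 0.10. The block leaves AB replicate 3, which has no control of its number, out of the difference. With 2 controls, the spread between libraries limits what can be called.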

Other observations

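Single AB libraries stood apart for some members at 7 days. TRAVEDRAFT_50414 was at 6.54, 205 and 2.36 CPM under AB, with controls at 5.24 and 4.51 CPM. TRAVEDRAFT_73191 was at 20.6, 112 and 16.4 CPM, with controls at 21.6 and 64.2 CPM. In both genes AB replicate 2 was the high library. The same replicate was the low one for TRAVEDRAFT_122666 and for TRAVEDRAFT_75336, which was at 54.1, 5.13 and 48.9 CPM. TRAVEDRAFT_74079 was at 25.6, 8.53 and 0.341 CPM under AB, lowest in replicate 3.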
